A study of Mus musculus with 4 samples.

Results

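Described here are 10 genes of the NRF2 antioxidant response in bone marrow-derived macrophages: Hmox1, Nqo1, Gclm, Gclc, Srxn1, Slc7a11, Gsr, Prdx1, and the genes of the regulator itself and of its inhibitor, Nfe2l2 and Keap1. They were chosen by symbol as known members of this pathway, and all 10 were found among the 16375 genes listed. RNA-seq was run on macrophages from WT mice and from mice lacking the long noncoding RNA lncLy6c (LNCKO), either left untreated (control) or exposed to 500 µM butyrate, a short-chain fatty acid made by gut bacteria, for 24 h. This gave 4 groups with 1 library each, called WT control and WT butyrate for the first genotype, LNCKO control and LNCKO butyrate for the second. The LNCKO mice were C57BL/6J animals in which CRISPR-Cas9 had removed lncLy6c from the germline, the cells of every group had been raised from bone marrow with M-CSF, and how many mice gave each culture is not given in the sources used here. The question behind the comparison was how butyrate changes expression in macrophages with and without lncLy6c.

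Each group was sequenced once, without replicates, so no p-value is given and every difference below is a difference between 2 libraries. Libraries held between 53363944 and 65521713 fragments. Intervals are 95% exact intervals (Poisson for a level, Clopper-Pearson for a ratio) and cover counting error only, not the variation between cultures or PCR duplicates. The deleted transcript does not appear by its name among the genes listed, and the deletion itself was not analysed here. Fragments of the Y-linked genes Ddx3y, Eif2s3y, Kdm5d and Uty summed to 203 in WT control and 132 in WT butyrate, against 15373 in LNCKO control and 20182 in LNCKO butyrate, so that genotype and sex cannot be told apart. All 10 macrophage markers, led by Lyz2 and Cd68, had a mean above 1 FPKM, but so did all 10 markers of neutrophils and their precursors, led by S100a8 and S100a9. In such bulk samples, fewer cells of a type and less RNA per cell cannot be told apart.

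NRF2, the transcription factor encoded by Nfe2l2, is made continuously and is normally destroyed, because KEAP1 hands it to a CUL3 ubiquitin ligase. Oxidants and electrophiles modify cysteines of KEAP1, NRF2 then escapes, pairs with a small MAF protein and binds antioxidant response elements near genes for glutathione synthesis, peroxide removal and haem and quinone breakdown. The repressor BACH1 occupies many of the same elements. In macrophages this programme limits oxidative damage during the respiratory burst and dampens inflammatory gene expression, and HMOX1 in particular is associated with the handling of haem from engulfed red cells.

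The antioxidant response element was searched as TGACNNNGC on either strand, in windows that run from 250 bases before to 50 bases after each RefSeq gene start (build GRCm38.p6). Windows were matched for 7 of the 10 genes, and none for Hmox1, Gclc and Gsr. Of the 7 windows, 4, those of Gclm, Nfe2l2, Prdx1 and Srxn1, held the motif, against 12.4% of all 32851 windows. Those of Keap1, Nqo1 and Slc7a11 did not. Followed by 1 more base, an A, the motif was in 0 of the 7 windows and in 3.04% of all windows. A form whose core reads nearly the same on both strands, TGAGTCAGC or TGACTCAGC, was searched after the data had been seen and overlaps the first motif where it reads TGACTCAGC. It was in the windows of Prdx1 and Srxn1 and in 0.822% of all windows. The stretches that hold these matches in 2 genes with lower values in WT butyrate, Srxn1 and Gclm, and in 1 gene with nearly level values, Prdx1, are shown in the direction of the gene, with the match in capitals. The capitals mark TGACNNNGC in Gclm and Prdx1, but in Srxn1 they mark only the form added later, since its TGACNNNGC match lies at 29 to 37 after the start, outside the stretch shown. That of Srxn1 (chr2:152105364-152105515, plus strand) covers bases -160 to -9 from the start and the match lies at -45 to -37. That of Gclm (chr3:122245397-122245556, plus strand) covers -160 to -1 with the match, on the opposite strand, at -134 to -126. That of Prdx1 (chr4:116685439-116685543, plus strand) covers -160 to -56, up to the earlier start of the gene annotation, with a match on the opposite strand at -133 to -125.
Srxn1: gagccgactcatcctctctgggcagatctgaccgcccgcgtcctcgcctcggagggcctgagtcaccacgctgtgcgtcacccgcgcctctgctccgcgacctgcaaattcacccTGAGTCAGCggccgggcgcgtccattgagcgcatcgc
Gclm: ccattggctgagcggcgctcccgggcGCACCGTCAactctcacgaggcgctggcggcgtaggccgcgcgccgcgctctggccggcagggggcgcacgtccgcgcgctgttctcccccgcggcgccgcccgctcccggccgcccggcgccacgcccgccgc
Prdx1: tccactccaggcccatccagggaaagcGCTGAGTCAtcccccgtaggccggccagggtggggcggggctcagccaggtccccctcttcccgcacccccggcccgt
A match is a description of the letters and does not show that NRF2 binds there. The motif was present both in genes that were lower in WT butyrate and in genes that were nearly level. It was also absent from windows of both kinds, Nqo1 and Slc7a11 among the lower and Keap1 among the nearly level.

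In WT macrophages exposed to butyrate, the 10 genes formed a lower and a nearly level set. Hmox1, Gclc, Slc7a11, Nqo1, Gclm and Srxn1 had between 0.633 and 0.718 times the fragments of WT control, relative to the library total. Gsr, Prdx1, Nfe2l2 and Keap1 had between 0.906 and 0.982 times. The median of the same ratio was 0.963 over 10760 tested genes. These had a mean of at least 0.1 FPKM, whole fragments recovered in every library and some fragments in WT control. Of those genes, 11.1% were at least 1.25-fold lower by this ratio, against 6 of the 10 genes here. Nqo1 and Slc7a11 were under that minimum and so have no like among the tested genes, and the interval of Nqo1 included 1. Among the 8 tested genes here, those lower were Hmox1, Gclc, Gclm and Srxn1. The 1.25-fold was chosen after the data had been seen. In LNCKO macrophages the ratio of butyrate to control lay between 0.901 and 1.08 for all 10 genes.

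**Figure D1:**
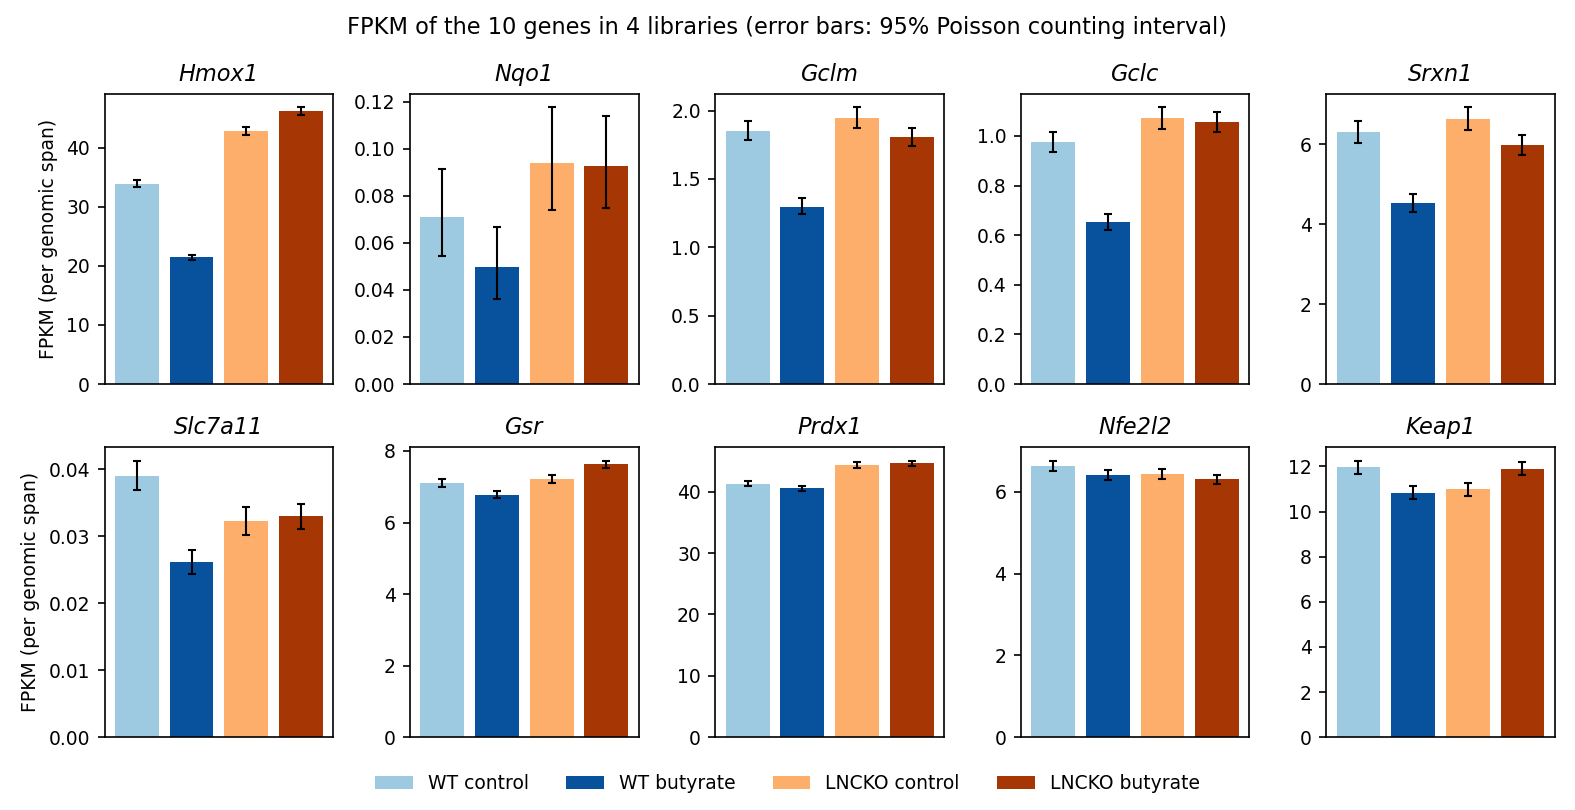
FPKM of the 10 genes, computed by the authors per length of the whole genomic span, without and with butyrate in WT and in LNCKO (bars, 1 library each, axes start at 0), with 95% Poisson counting intervals. WT butyrate is the lowest bar for 9 of the 10 genes, as it is for 46.4% of all tested genes, with Prdx1 at 40.5 FPKM and Slc7a11 at 0.0262 FPKM as the extremes, while Nfe2l2 lies between 6.30 and 6.63 FPKM in every library.

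Hmox1 (ENSMUSG00000005413, chr8:75093621-75100589, GRCm38, plus strand) encodes haem oxygenase 1, which breaks haem down to biliverdin, carbon monoxide and iron. It stood at 33.9 FPKM in WT control and 21.5 in WT butyrate, against 42.8 in LNCKO control and 46.2 in LNCKO butyrate, from 8855 to 21106 fragments. WT butyrate was the lowest of the 4 libraries and both LNCKO libraries were above both WT libraries. The ratio of butyrate to control was 0.633 (0.616 to 0.651) in WT and 1.08 (1.06 to 1.10) in LNCKO. On the log2(FPKM + 0.1) scale, Hmox1 changed by -0.66 in WT, which was the 156th lowest value among the 10959 genes with a mean of at least 0.1 FPKM. It was the only one of the 8 genes here above that minimum that was past 1.5-fold.

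Nqo1 (ENSMUSG00000003849, chr8:107388225-107403206, minus strand), a quinone reductase widely used as a readout of NRF2 activity, was nearly silent. Its values were 0.0710 FPKM in WT control and 0.0496 in WT butyrate, against 0.0938 in LNCKO control and 0.0927 in LNCKO butyrate, from 60, 44, 75 and 91 fragments. The order of the libraries was that of Hmox1 except for the 2 LNCKO libraries. In WT the ratio of 0.699 had an interval of 0.462 to 1.05, so a difference was not detectable at this depth, and in LNCKO the ratio was 0.988 (0.720 to 1.36). Its mean of 0.0768 FPKM was under the minimum, and it entered no count of genes past a fold on the log2(FPKM + 0.1) scale.

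Glutathione synthesis begins with cystine, which is brought into the cell by the antiporter that Slc7a11 (ENSMUSG00000027737, chr3:49892526-50443614, minus strand) encodes. Slc7a11 stood at 0.0391 FPKM in WT control and 0.0262 in WT butyrate, against 0.0323 in LNCKO control and 0.0330 in LNCKO butyrate. These small values reflect a span of 551089 bases, over which the authors divided, and rest on 1214, 854, 950 and 1191 fragments. WT control was the highest library, unlike for Hmox1 and Nqo1, and WT butyrate the lowest. The ratio of butyrate to control was 0.670 (0.613 to 0.732) in WT and 1.02 (0.937 to 1.11) in LNCKO. Its mean of 0.0326 FPKM was also under the minimum, and on the log2(FPKM + 0.1) scale the WT difference shrinks to -0.14, from -0.58 as the log2 of the ratio of fragments per library total.

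Gclc and Gclm encode the catalytic and the modifier subunit of glutamate-cysteine ligase, the rate-limiting enzyme of glutathione synthesis. Gclc (ENSMUSG00000032350, chr9:77754535-77794485, plus strand) had 0.974 FPKM in WT control and 0.652 in WT butyrate, against 1.07 in LNCKO control and 1.06 in LNCKO butyrate. Gclm (ENSMUSG00000028124, chr3:122245557-122270732, plus strand) had 1.85 FPKM in WT control and 1.30 in WT butyrate, against 1.95 in LNCKO control and 1.81 in LNCKO butyrate. For both subunits the WT butyrate library stood apart below the other 3. The WT ratio was 0.670 (0.627 to 0.715) for Gclc, from 1542 to 2762 fragments per library. It was 0.701 (0.660 to 0.743) for Gclm, from 1934 to 2980 fragments. In LNCKO, Gclc had a ratio of 0.986 (0.932 to 1.04) and Gclm one of 0.928 (0.880 to 0.978), of which only that of Gclm was below 1 beyond counting error. Gclm shares 296 exon bases with Gm17494 on the opposite strand and 244 with the pseudogene Gm6061 on its own strand, neither of which was listed, and whether reads were split by strand is not given in the sources used here.

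Gsr (ENSMUSG00000031584, chr8:33652523-33698163, plus strand), the glutathione reductase that returns oxidised glutathione to its reduced form, was closer to level than the synthesis genes. It had 7.10 FPKM in WT control and 6.77 in WT butyrate, against 7.22 in LNCKO control and 7.63 in LNCKO butyrate. The WT ratio was 0.953 (0.934 to 0.973) and the LNCKO ratio 1.06 (1.04 to 1.08), both small but outside counting error, and opposite in direction. With scaling by the median ratio the WT log2 difference of Gsr went from -0.07 to -0.01, while that in LNCKO was 0.10.

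Peroxiredoxin 1, encoded by Prdx1, removes peroxides, and sulfiredoxin, encoded by Srxn1, repairs peroxiredoxins that have been over-oxidised. Srxn1 (ENSMUSG00000032802, chr2:152105516-152111376, plus strand) had 6.30 FPKM in WT control and 4.53 in WT butyrate, against 6.63 in LNCKO control and 5.98 in LNCKO butyrate, from 1570 to 2295 fragments. Its ratio was 0.718 (0.672 to 0.767) in WT and 0.901 (0.849 to 0.957) in LNCKO, the lowest LNCKO ratio of the 10 genes. Prdx1 (ENSMUSG00000028691, chr4:116685544-116700822, plus strand) had 41.3 FPKM in WT control and 40.5 in WT butyrate, against 44.4 in LNCKO control and 44.6 in LNCKO butyrate. The repair enzyme was thus lower in WT butyrate while the gene of its substrate was nearly level, at a WT ratio of 0.982 (0.968 to 0.996) and an LNCKO ratio of 1.01 (0.992 to 1.02). The WT difference of Prdx1 turned to 0.03 on the log2 scale when the libraries were scaled by the median ratio over genes.

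The regulator and its inhibitor were nearly level. Nfe2l2 (ENSMUSG00000015839, chr2:75675513-75704641, minus strand) had 6.63 FPKM in WT control and 6.41 in WT butyrate, against 6.43 in LNCKO control and 6.30 in LNCKO butyrate. It was the only gene of the 10 whose lowest library was not WT butyrate. Its ratio was 0.966 (0.941 to 0.992) in WT, which turned to a log2 difference of 0.01 with scaling by the median ratio, and 0.981 (0.955 to 1.01) in LNCKO. Keap1 (ENSMUSG00000003308, chr9:21229730-21239361, minus strand) had 12.0 FPKM in WT control and 10.8 in WT butyrate, against 11.0 in LNCKO control and 11.9 in LNCKO butyrate. Its ratio was 0.906 (0.875 to 0.938) in WT and 1.08 (1.05 to 1.12) in LNCKO, a small pair of opposite directions outside counting error, of which the WT log2 difference went from -0.14 to -0.08 with the same scaling. Keap1 shares 510 exon bases with the antisense gene Gm16754, which was not listed. NRF2 is controlled mainly through the stability of its protein, which RNA-seq does not measure.

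**Figure D2:**
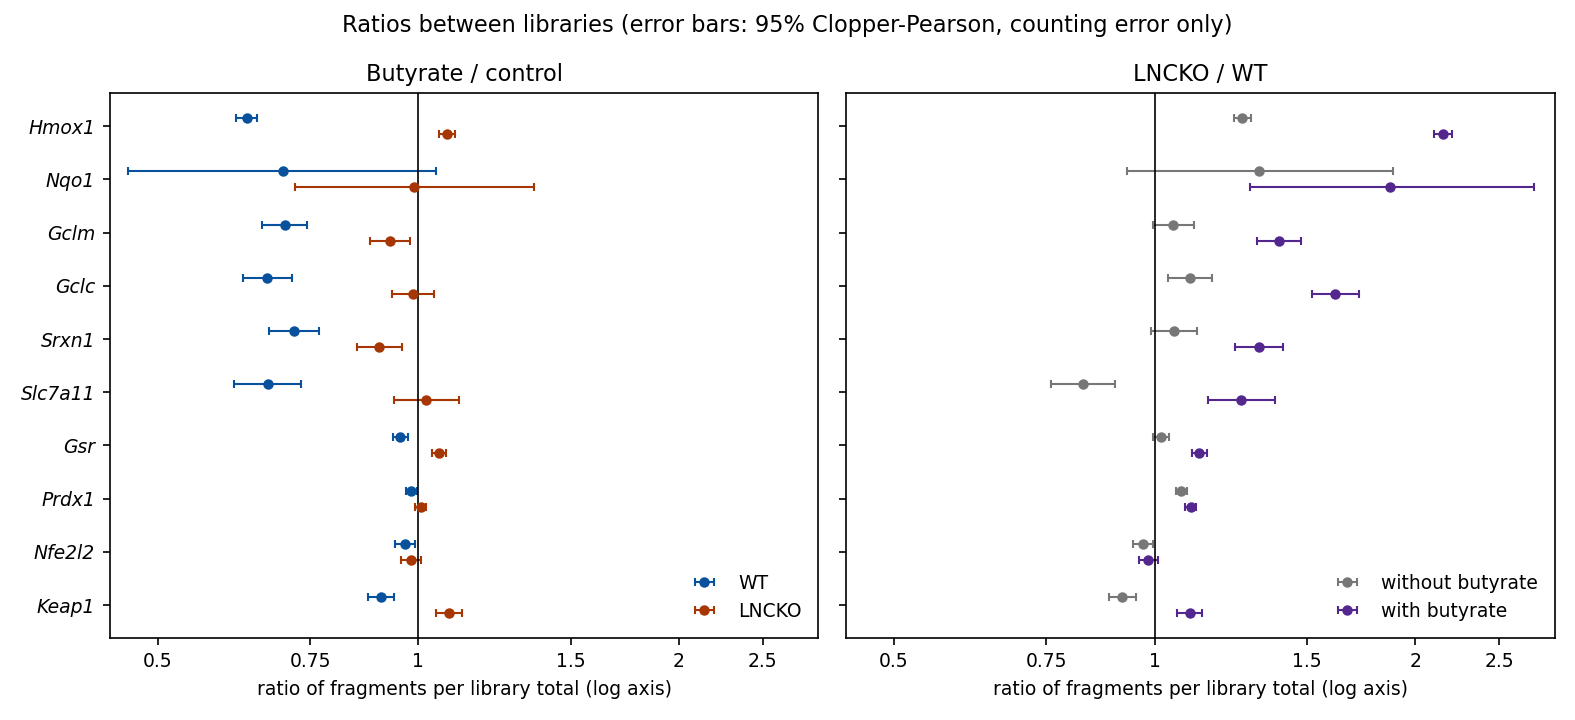
Ratios of fragments per library total for the 10 genes (log axis, points with 95% Clopper-Pearson intervals for counting error only), on the left butyrate to control in WT and LNCKO, on the right LNCKO to WT without and with butyrate. In WT, 6 genes lie between 0.633 and 0.718, while the LNCKO points lie between 0.901 and 1.08, and on the right Hmox1 with butyrate lies farthest out at 2.15.

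Counted past 1.5-fold on the log2(FPKM + 0.1) scale, 1 of the 8 tested genes here (Hmox1) was lower with butyrate in WT, against 1.83% of the 10959 tested genes, and 0 were higher, against 2.68%. In LNCKO, 0 of 8 were past 1.5-fold in either direction, against 1.35% of all tested genes higher and 0.766% lower. At 1.25-fold, chosen after the data had been seen, 4 of 8 (Gclc, Gclm, Hmox1 and Srxn1) were lower in WT, against 8.35% of all tested genes, and 0 were higher, against 7.38%. The median log2 difference in WT was -0.17 over the 10 genes and -0.30 over the 8 tested, against -0.05 over all tested genes. All 10 values were below 0, of which those of Nfe2l2 and Prdx1 turned positive with median-ratio scaling, while 60.7% of all tested genes were below 0. In LNCKO the median was -0.00 over the 10 genes and -0.02 over all tested genes. There, 5 of the 10 were below 0, against 57.8% of all tested genes.

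WT butyrate was the lowest of the 4 libraries for 9 of the 10 genes and for 7 of the 8 tested. The same held for 46.4% of all tested genes, and the count was made after the data had been seen. The WT butyrate library enters both the comparison with WT control and that with LNCKO butyrate, and low values in it enter both.

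Without butyrate, the ratios of LNCKO to WT lay between 0.827 and 1.32 for the 10 genes. The highest was that of Nqo1, with an interval of 0.928 to 1.89. The ratio of LNCKO control to WT control was farthest above 1 among genes with an interval clear of 1 for Hmox1, at 1.26 (1.23 to 1.29), followed by Gclc at 1.10 (1.04 to 1.17) and Prdx1 at 1.07 (1.06 to 1.09). It was below 1 for Slc7a11, at 0.827 (0.759 to 0.901), Keap1, at 0.918 (0.885 to 0.951), and Nfe2l2, at 0.969 (0.943 to 0.996). None of the 8 tested genes was past 1.5-fold, against 1.55% of all tested genes higher and 1.51% lower. On the log2(FPKM + 0.1) scale, the difference of 0.34 for Hmox1 was at or above that of 95.8% of all tested genes. The median log2 difference was 0.07 over the 10 genes and 0.02 over all tested genes.

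With butyrate, the LNCKO library was the higher for 9 of the 10 genes and for 7 of the 8 tested, against 6672 of the 10959 tested genes. Hmox1 differed most, with LNCKO butyrate at 2.15 times the WT butyrate value (2.10 to 2.21), and Gclc was at 1.62 times (1.52 to 1.72). These 2 of the 8 tested genes were past 1.5-fold higher, against 2.38% of all tested genes, and 0 were past it lower, against 2.55%. The ratio was 1.87 (1.29 to 2.74) for Nqo1, 1.39 (1.31 to 1.47) for Gclm, 1.32 (1.24 to 1.41) for Srxn1 and 1.26 (1.15 to 1.38) for Slc7a11. The others lay closer to 1, with intervals of 1.11 to 1.15 for Gsr and ratios of 1.10 for both Prdx1 and Keap1, and 0.984 for Nfe2l2. The median log2 difference was 0.27 over the 10 genes against 0.05 over all tested genes.

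The difference between the butyrate effects in WT and LNCKO is the quantity these 4 libraries were made to show. On the log2(FPKM + 0.1) scale, the WT change minus the LNCKO change was below 0 for all 10 genes, from -0.77 for Hmox1 to -0.02 for Nfe2l2, of which those of Nfe2l2 and Prdx1 turned to 0.02 and 0.00 with median-ratio scaling. Its median was -0.22, against -0.03 over all tested genes, whose share below 0 was not counted for this difference. Hmox1 was followed by Gclc at -0.50, Gclm at -0.38 and Srxn1 at -0.32. With 1 library per group this difference was not tested.

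Levels can be compared between the genes only per length of their exons, as recovered fragments per kilobase of exon per 1000000 fragments in the library. In WT control the order was Prdx1 at 207, Hmox1 at 135, Gsr at 118, Nfe2l2 at 50.9, Keap1 at 24.6, Srxn1 at 13.1, Gclc at 10.3, Gclm at 7.41, Slc7a11 at 1.55 and Nqo1 at 0.685. The same order held in both LNCKO libraries. In WT butyrate Hmox1, at 85.4, moved below Gsr, at 112, and the rest of the order was unchanged. The 6 genes with the lower WT ratios thus ran from one of the most to the least expressed of the 10. No spread over replicates was available to say which neighbours differ.

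**Figure D3:**
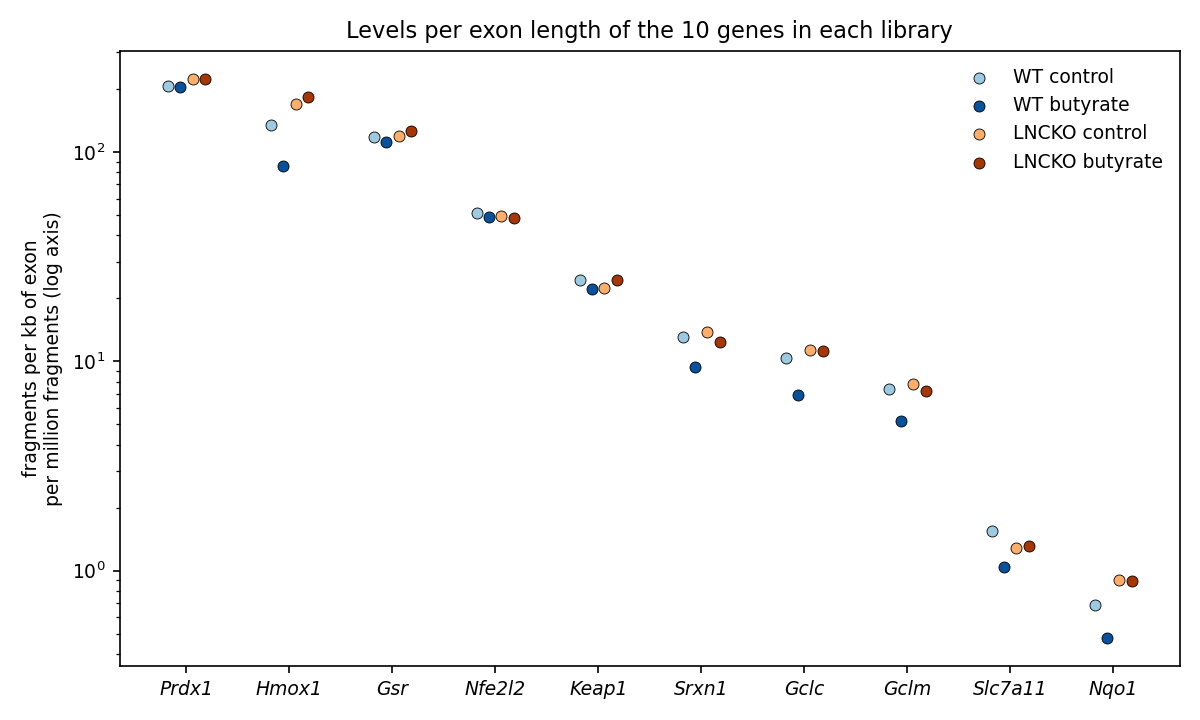
Fragments per kilobase of exon per 1000000 fragments (log axis) of the 10 genes, ordered by WT control, with 1 point per library. The levels run from 207 for Prdx1 to 0.685 for Nqo1 in WT control, and the WT butyrate point of Hmox1, at 85.4, lies below that of Gsr, at 112.

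Over 7 lists of related genes, 122 rows had a mean of at least 0.1 FPKM, and with butyrate in WT 4 of them were past 1.5-fold higher and 3 lower, with a median log2 difference of -0.07. These counts were close to the 2.68% and 1.83% of all tested genes, and the 7 calls became 1 with a pseudocount of 1 or a minimum of 1 FPKM. The LNCKO count was 3 higher and 1 lower, against 1.35% and 0.766% of all tested genes, and the median -0.01. For LNCKO against WT the lists had 2 higher and 4 lower without butyrate and 4 higher and 5 lower with it, with medians of 0.01 and 0.07. All tested genes had 1.55% and 1.51% in the first of these comparisons and 2.38% and 2.55% in the second. Among the partners and controllers of NRF2, the 15 tested genes had a median of -0.15 in WT and -0.00 in LNCKO. Of these, only Maff, a small MAF partner, was past 1.5-fold in WT, from 0.138 to 0.266 FPKM at 97 and 196 fragments, while Bach1, named after its values were seen, had 7.62 FPKM in WT control and 7.91 in WT butyrate.

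The list of glutathione synthesis, use and transport had 33 tested genes besides those above. Of these, 3 glutathione S-transferases rose past 1.5-fold with butyrate in WT, against 2.68% of all tested genes, Gstm5 from 0.309 to 1.57 FPKM, Gstt1 from 0.104 to 0.245 and Gstk1 from 0.770 to 1.49 FPKM, and 0 fell, with a list median of 0.06. Gstm5 rose in LNCKO too, from 0.157 to 0.458 FPKM, as did the peroxidase gene Gpx8, from 0.0461 to 0.255 at 9 and 61 fragments. Gstt1 had 64 fragments in LNCKO control and 40 in LNCKO butyrate. Gstk1 had 272 and 256. Gstm5, Gstt1 and Gstk1 are counted by few fragments, from 24 to 398 in a library. Gstm1 and Gstp1, named after their values were seen, had more, with 3930 and 2753 in WT control. Their WT ratios were 1.25 (1.20 to 1.30) and 1.22 (1.16 to 1.29), and their LNCKO ratios 0.984 and 0.944. Over the 33 tested genes of the list, 18 were above 0 and 15 below 0 in WT, where 60.7% of all tested genes were below 0.

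The thioredoxin and peroxiredoxin list had 16 tested genes, of which 0 were past 1.5-fold in any of the 4 comparisons, a count that shares of 0.766% to 2.68% per direction over all tested genes also give. The median was 0.07 in LNCKO and -0.05 in WT, which turned to 0.01 with median-ratio scaling. Txnrd1, the cytosolic thioredoxin reductase and a known NRF2 target that was named after its values were seen, had 1.97 FPKM in WT control and 1.43 in WT butyrate, against 2.18 in LNCKO control and 2.02 in LNCKO butyrate, a WT ratio of 0.726 (0.700 to 0.752). The NADPH supply list had a median of -0.20 in WT and -0.02 in LNCKO over 13 tested rows. Of its genes, G6pdx, the entry enzyme of the pentose phosphate pathway and likewise named after its values were seen, had 14.1, 11.2, 13.3 and 12.4 FPKM in the order control and butyrate of WT, then of LNCKO. Nnt, the mitochondrial transhydrogenase, was listed in 2 rows. That of ENSMUSG00000116207 had 0.203 FPKM in WT control and 0.0180 in WT butyrate, against 0.168 in LNCKO control and 0.190 in LNCKO butyrate. That of ENSMUSG00000025453 had 0.517, 0.576, 0.306 and 0.258.

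Among 27 tested genes of haem and quinone handling and other NRF2 targets, the median was -0.11 in WT and -0.02 in LNCKO. The epoxide hydrolase gene Ephx1 fell past 1.5-fold in WT, from 0.368 to 0.211 FPKM, and had 0.377 and 0.399 FPKM in LNCKO control and LNCKO butyrate. Neither ferritin gene, both named after their values were seen, was past 1.5-fold, Ftl1 with 1443, 1193, 1382 and 1526 FPKM and Fth1 with 1209, 1385, 1264 and 1378 FPKM in the same order of libraries. Of the extracellular superoxide dismutase Sod3 and the porphyrin transporter Abcb6, Sod3 rose with butyrate in LNCKO from 0.356 to 0.646 FPKM and Abcb6 fell from 0.641 to 0.121. In WT control and WT butyrate, Sod3 had 0.937 and 0.658 FPKM and Abcb6 had 0.227 and 0.239. Without butyrate, Sod3 was thus lower and Abcb6 higher in LNCKO, both past 1.5-fold, while with butyrate Abcb6 was past it lower. The scavenger receptor gene Cd36 was higher in LNCKO with butyrate, at 1.53 FPKM against 0.959 in WT butyrate, a ratio of 1.60 (1.55 to 1.65). Without butyrate it was higher in LNCKO by a similar ratio of 1.52 (1.48 to 1.57), at 1.89 against 1.25 FPKM. Only the difference with butyrate was past 1.5-fold on the log2(FPKM + 0.1) scale.

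The phagocyte NADPH oxidase, the source of the respiratory burst, had 0 of 8 tested genes past 1.5-fold in any of the 4 comparisons, for which the same shares over all tested genes hold. The medians were -0.05 in both WT and LNCKO, and that in WT turned to 0.01 with median-ratio scaling. The last list held genes of ATF4, a stress regulator that also acts on Slc7a11. Over its 12 tested genes the medians were -0.05 in WT, which turned to 0.07 with a minimum of 1 FPKM, and -0.10 in LNCKO. Trib3, one of its targets, fell with butyrate in WT from 0.582 to 0.307 FPKM, and had 1.01 FPKM in LNCKO control and 0.674 in LNCKO butyrate.

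**Figure D4:**
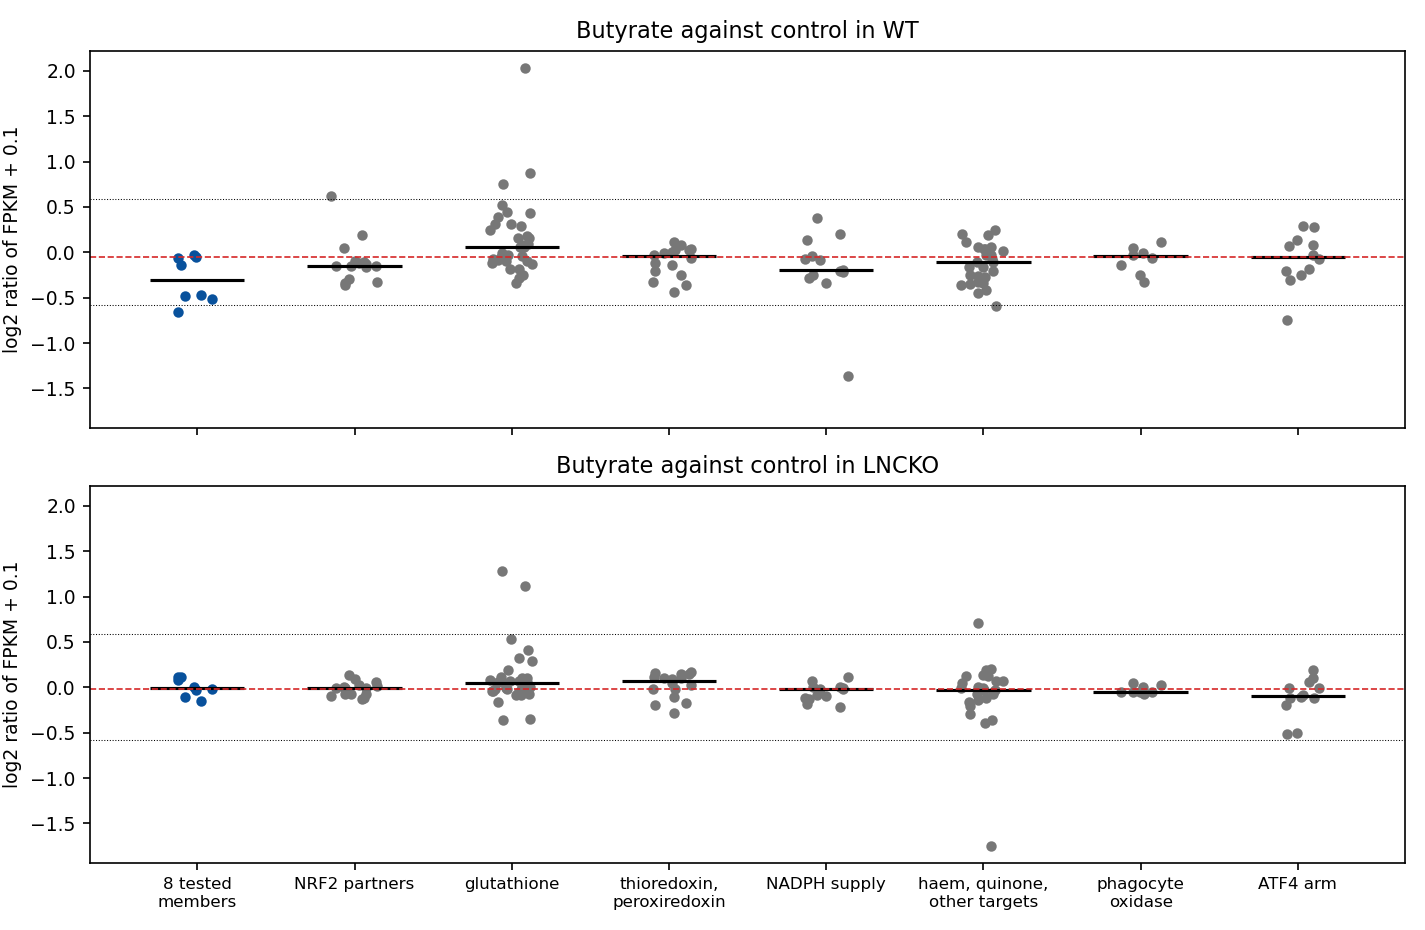
Log2 ratio of FPKM + 0.1, butyrate against control, in WT (top) and LNCKO (bottom), for the 8 tested genes of the 10 (blue) and for the tested genes of 7 related lists (grey points, 1 per gene). Black bars are list medians, the dashed red line is the median of all tested genes and dotted lines mark 1.5-fold. The blue median is -0.30 in WT and -0.01 in LNCKO, and the other list medians in WT run from -0.20 for NADPH supply to 0.06 for glutathione.

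Marker genes of other cell types differed between the same libraries. Given first for WT control and butyrate and then for LNCKO control and butyrate, the 10 macrophage markers summed to 15539, 20553, 13455 and 9767 fragments per 1000000, or to 5697, 6224, 5422 and 5425 without Lyz2. The 10 neutrophil markers summed to 7045, 8168, 6395 and 5956. The 7 B cell markers, led by Cd79b and Cd79a, summed to 1415, 1172, 1460 and 1478, and those of mast cells and basophils, led by Prss34 and Mcpt8, to 121, 93.2, 189 and 190, both lowest in WT butyrate as were 9 of the 10 genes here. Of the 9 listed erythroid genes, 8 gave whole fragments in every library and were summed. Led by Hba-a1 and Hba-a2, they summed to 9.61, 11.5, 38.1 and 100, and this sum was thus highest in the library where Hmox1 was highest. Stromal markers, led by Col1a1 and Col1a2, summed to 277, 258, 85.0 and 172, and T and NK cell markers, led by Nkg7 and Cd4, to 81.6, 84.7, 73.6 and 79.7. A sum follows the highest genes of its list, and single genes often went the other way. With butyrate in WT, 6 of 10 stromal markers, 2 of 8 T and NK cell markers and 2 of 7 mast cell and basophil markers were higher. In LNCKO control, 6 of 8 T and NK cell markers were above WT control, although their sum was lower. The part of these cells in the differences was not tested.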

How the data were processed

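The authors deposited 1 table of FPKM for the 4 libraries. Submitters' processing notes name STAR 2.5.0c, Picard 1.126, bedtools 2.17.0, HTSeq 0.6.0, DESeq2 3.0 and the builds GRCm38 and mm10, without saying which step each served. The deposited FPKM divide by the genomic span of a gene, introns included: with GENCODE M21 spans, 98.4% of 16342 matched genes gave whole fragments in all 4 libraries (tolerance 0.01), against 6.88% with exon lengths. The count of fragments and each library's total were recovered in this way, and gave the ratios and their intervals (scipy 1.17.1). Span-based FPKM are small for long genes, so a pseudocount of 0.1 was added before log2, and counts of genes past 1.5-fold took the 10959 genes with a mean of at least 0.1 FPKM. No count model or test was run, since each group had 1 library. Libraries were assigned by title, and table columns by the library names in the descriptions. For LNCKO those names (NC and R3) do not themselves name the genotype. The sources name different extraction kits and sequencers, so neither is stated. Named were all 10 genes and, of each list and comparison, up to 3 genes past 1.5-fold in each direction, with exceptions said in place. Members and lists were chosen with earlier results of these data known. Alternatives were pseudocounts of 1 and 0.01, a minimum of 1 FPKM or none, 2-fold, scaling by the median ratio, recovered fragments and, after seeing the data, 1.25-fold.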

Additional observations from a re-analysis of the deposited data

Results flagged for a closer look

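Hmox1, Gsr and Keap1 had opposite directions in the genotypes, lower with butyrate in WT and higher in LNCKO, beyond counting error in both. On the log2(FPKM + 0.1) scale the WT change minus the LNCKO change was -0.77 for Hmox1 (-0.66 in WT and 0.11 in LNCKO), -0.15 for Gsr (-0.07 and 0.08) and -0.26 for Keap1 (-0.14 and 0.12). With scaling by the median ratio the WT values became -0.60, -0.01 and -0.08 in that order, so that Gsr was nearly level in WT. The difference was not tested, because each group had 1 library. Prdx1 and Slc7a11 also had opposite signs, but their LNCKO ratios had intervals that include 1.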

How the results depend on the processing

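No difference past 1.5-fold changed direction. With scaling by the median ratio, the small WT differences of Nfe2l2 and Prdx1, -0.05 and -0.03, went to 0.01 and 0.03, their WT minus LNCKO differences also changed sign, Gsr and Keap1 in WT went from -0.07 and -0.14 to -0.01 and -0.08, and the WT median of all tested genes went from -0.05 to 0.00. Over 5 settings, the reported one included, the range was -0.66 to -0.60 for Hmox1 in WT, -0.58 to -0.26 for Gclc, -0.51 to -0.31 for Gclm, -0.48 to -0.40 for Srxn1, -0.58 to -0.02 for Slc7a11 and -0.51 to -0.03 for Nqo1, where a larger pseudocount shrinks low values by construction. The median over the 10 genes in WT went from -0.17 to -0.44 with a pseudocount of 0.01 and to -0.49 with recovered fragments, and the median of the WT minus LNCKO difference from -0.22 to -0.36 and -0.37. LNCKO against WT with butyrate went from 0.27 to 0.14 with a pseudocount of 1. Hmox1 was no longer past the fold in WT at 2-fold (0 genes), and 4 were past 1.25-fold. Without butyrate, 1 gene was higher in LNCKO at 1.25-fold. With butyrate, the 2 genes higher in LNCKO became 1 with a pseudocount of 1, with scaling, with a minimum of 1 FPKM and at 2-fold, and 4 at 1.25-fold. Over all tested genes, those past 1.5-fold in the comparisons butyrate in WT, butyrate in LNCKO, LNCKO without and LNCKO with butyrate numbered 495, 232, 335 and 540. A pseudocount of 1 left 116, 46, 61 and 121, and a minimum of 1 FPKM left 160, 51, 74 and 194. They numbered 152, 87, 122 and 161 at 2-fold, and 1724, 683, 905 and 1728 at 1.25-fold. A pseudocount of 0.01 gave 751 and 360 for the first 2, recovered fragments gave 775, 370 and 509 for the first 3, and no minimum gave 371 for the second. Of the related lists in WT, 7 calls became 1 with a pseudocount of 1 or a minimum of 1 FPKM and 2 at 2-fold, and the median of the ATF4 list went from -0.05 to 0.07 with that minimum. The motif count of 4 became 0 with 1 more base and 2 with the other core. No paired analysis was possible because each group had 1 library, all with the same number in their names, and leaving out a library would empty its group.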
